A study of Drosophila sechellia with 6 samples.

Results

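The genes described here form the chorion gene cluster that is X-linked in *D. melanogaster*, from *Cp7Fa* to *Cp38*, as annotated in *Drosophila sechellia*. The 6 members were taken by their names in the deposited table, where each matched 1 of 17273 genes. They are consecutive genes on scaffold 35 of the genome build dsec_caf1, from 214054 to 225963, a stretch of 11910 nt. Orthologs listed in the supplementary tables of the paper name 5 of them *Cp7Fa* (GM21594), *Cp7Fb* (GM21605), *Cp7Fc* (GM21616), *Cp36* (GM21626) and *Cp38* (GM21647). The remaining member, GM21636, lies between *Cp36* and *Cp38*, has no ortholog name in those tables and is called by its identifier. The files do not assign the scaffold to a chromosome.

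Whole adult females of the strain 14021-0428.25, aged 0 to 3 days, were kept for 24 h on instant *Drosophila* food mixed with 1 g of rotten pulp of noni (*Morinda citrifolia*) or on the same food without noni, called control. All flies had been reared on cornmeal medium at 20 °C with 16 h of light and 8 h of dark. Poly(A) RNA was sequenced from 3 libraries per diet, each of 10 flies, so a library is a pool of whole animals of 1 strain. For each gene the authors deposited 1 value per diet, in FPKM (a read count corrected for the length of the transcript and the depth of the library), pooled over the 3 libraries. Libraries are not listed one by one, which leaves the spread between them and the number of fragments behind a value unknown. The table does hold the authors' own tests of the diets, which were not used here, so the differences below are given without a test or a replicate check.

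The insect eggshell is laid down around the oocyte by the somatic follicle cells of the ovary. In *D. melanogaster* these cells first secrete the vitelline membrane and then, within a few hours, the chorion, whose proteins are later cross-linked. The major chorion proteins are encoded by a cluster on the X chromosome and a cluster on an autosome. Before the clusters are transcribed at their peak, follicle cells copy the DNA of both over and over from local origins of replication, and the copy number falls off gradually into the neighbouring genes. *Cp36* and *Cp38* are transcribed early in chorion formation in that species, while *Cp15* and *Cp18* of the autosomal cluster are transcribed late. *D. sechellia* is a specialist on noni.

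The libraries carried the marks of adult females. Of 7 names of female marker genes, 5 were matched, namely *Yp1*, *Yp2*, *Vm26Aa*, *Vm26Ab* and *Vm32E*. They lay between 1666 and 23781 FPKM on noni and between 978 and 13415 FPKM on control. Of 7 matched genes of the male accessory gland and testis, 5 are listed at 0 FPKM in both diets, and the highest values were 0.679 FPKM on noni and 0.811 FPKM on control. All 5 female markers were also higher on noni, with log2 ratios of noni to control from 0.37 to 0.83. Among all genes compared below, 55.1% were higher on noni. Most of the markers were matched through the supplementary tables of the paper, which favour genes that changed, so they are not a neutral sample. Their part in the differences of the chorion cluster was not tested.

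All 6 members of the cluster had a higher value on noni than on control. In the order of the scaffold, log2 ratios of noni over control were 1.76 for *Cp7Fa*, 1.81 for *Cp7Fb*, 1.58 for *Cp7Fc*, 1.26 for *Cp36*, 0.86 for GM21636 and 0.97 for *Cp38*. Their median was 1.42, against 0.04 for the 11860 genes that had a value above 0 in both diets and a mean of at least 1 FPKM. A log2 ratio of at least 1, a doubling, was reached by 4 members (*Cp7Fa*, *Cp7Fb*, *Cp7Fc* and *Cp36*), whereas 2.07% of the genes compared reached it. All 6 reached a ratio of at least 1.5, which 5.96% of the genes compared did. Among all genes compared, 55.1% were higher on noni. In whole flies, more follicle cells at the stage of chorion formation and more RNA per cell cannot be told apart.

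**Figure D1:**
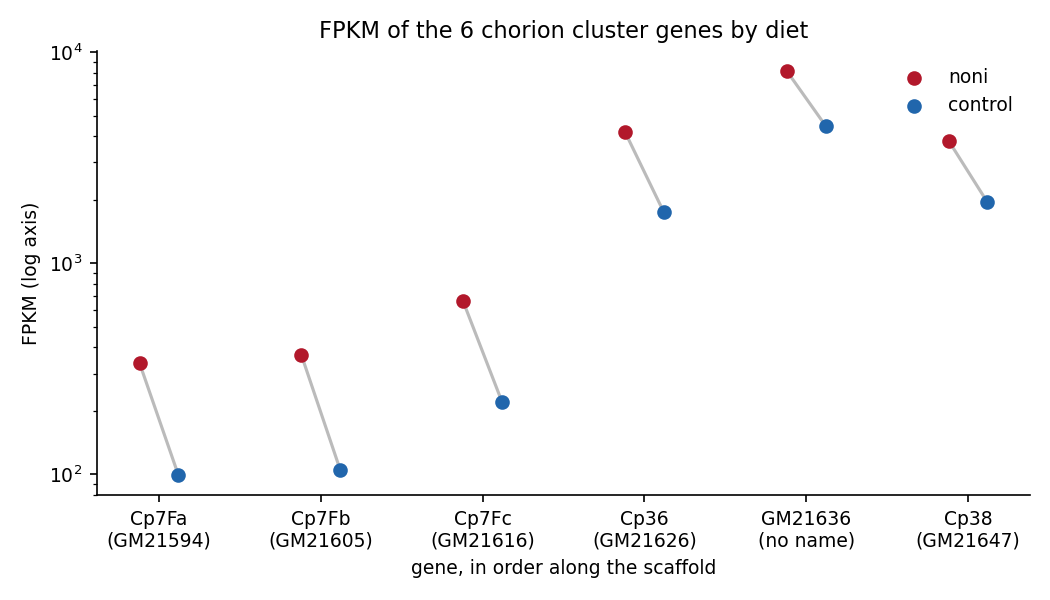
FPKM of each member on noni (red, left) and on control (blue, right), on a log axis, with the genes in their order along the scaffold and 1 pooled value for each diet. Every red point lies above its blue point, and the 3 members on the right are at 1746 FPKM or more in both diets while the *Cp7F* genes are at 659 FPKM or less.

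The *Cp7F* genes, which code for chorion proteins, were the least abundant members and had the largest ratios. *Cp7Fa* lies at 214054 to 215977 and had 336 FPKM on noni and 99.2 FPKM on control, a ratio of 3.39. *Cp7Fb*, at 216862 to 218496, had 368 FPKM on noni and 105 FPKM on control, a ratio of 3.50. *Cp7Fa* and *Cp7Fb* were thus close to each other in level and in ratio, and in both diets *Cp7Fb* was slightly the higher. *Cp7Fc*, at 220087 to 221104, had 659 FPKM on noni and 221 FPKM on control, a ratio of 2.99. It was 1.96 times as abundant as *Cp7Fa* on noni and 2.22 times on control. Summed over the 3 *Cp7F* genes, the values were 1363 FPKM on noni and 425 FPKM on control, 3.21 times as much on noni.

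*Cp36* and *Cp38* encode major proteins of the chorion. *Cp36*, at 222287 to 223223, had 4189 FPKM on noni and 1746 FPKM on control, a ratio of 2.40. *Cp38*, at 225269 to 225963, had 3808 FPKM on noni and 1947 FPKM on control, a ratio of 1.96. The order of these genes was not the same in the diets: *Cp38* had 0.909 times the FPKM of *Cp36* on noni and 1.12 times on control. Without single libraries it is unknown whether that difference in order is larger than the spread between libraries. The log2 ratio of *Cp38* was just below a doubling, and it passed that mark, at 1.06, when both diets were rescaled to the same sum of FPKM over all genes.

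GM21636, at 224803 to 225235, was the most abundant member and had the smallest ratio. Its values were 8136 FPKM on noni and 4477 FPKM on control, a ratio of 1.82. Of all 17273 genes it ranked 26th on noni and 98th on control. Its annotated end is 33 nt from the annotated start of *Cp38*, while the other gaps between neighbouring members are 884, 1590, 1182 and 1579 nt. At 433 nt it is also the shortest annotated locus of the cluster, and the FPKM of a short gene depends strongly on how its effective length was estimated. GM21636 had 2.14 times the FPKM of *Cp38* on noni and 2.30 times on control. Under none of the 4 other scalings tried did its log2 ratio reach 1, with a highest value of 0.96.

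Levels differed more between members than between diets. The members ran, from the lowest to the highest, *Cp7Fa*, *Cp7Fb*, *Cp7Fc*, *Cp38*, *Cp36* and GM21636 on noni, and in the same order with *Cp36* before *Cp38* on control. The highest member had 24.2 times the FPKM of the lowest on noni and 45.1 times on control. On control the order of the levels was the reverse of the order of the locus lengths, which are 1924 nt for *Cp7Fa*, 1635 nt for *Cp7Fb*, 1018 nt for *Cp7Fc*, 937 nt for *Cp36*, 695 nt for *Cp38* and 433 nt for GM21636. The members with lower values on control had the higher ratios, with *Cp7Fa* and *Cp7Fb* the exception in their order. The control value enters the ratio, so the relation is partly built in. No spread is known for these values, so it cannot be said which neighbours in the order differ beyond error.

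The cluster as a whole summed to 17496 FPKM on noni and 8594 FPKM on control, a ratio of 2.04. That was 0.865% of the FPKM summed over all genes on noni and 0.399% on control. *Cp36*, GM21636 and *Cp38* made up 92.2% of the cluster sum on noni and 95.1% on control. They also made up 89.5% of the difference of 8902 FPKM between the diets, of which GM21636 alone contributed 41.1%, *Cp36* 27.4% and *Cp38* 20.9%. The sum of the cluster therefore reflects these genes, whose combined ratio was 1.97, and not the *Cp7F* genes, with the largest ratios. Ranked by the difference in FPKM between noni and control, GM21636 was 8th of all 17273 genes, *Cp36* 14th and *Cp38* 19th.

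**Figure D2:**
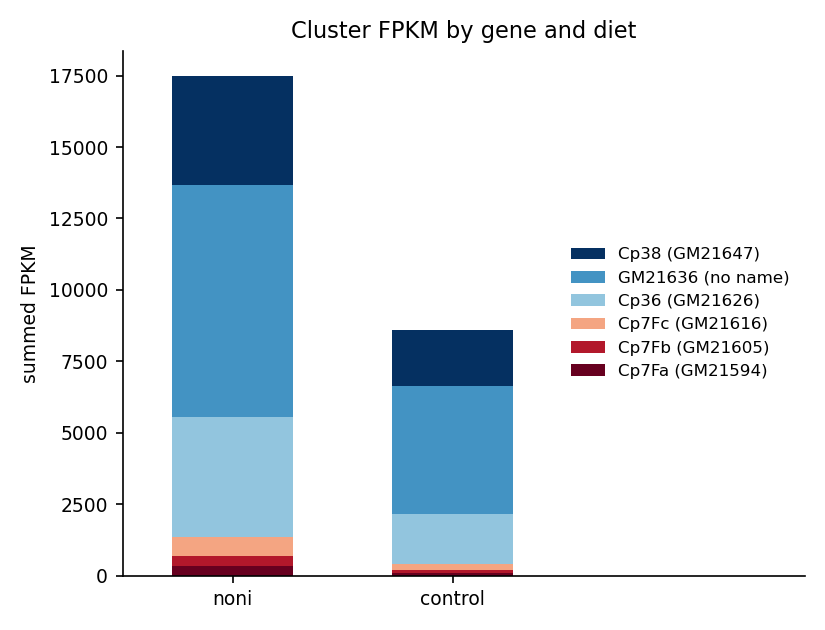
Summed FPKM of the 6 members on noni (left) and control (right), stacked by gene. The bars reach 17496 on noni and 8594 on control, and the *Cp7F* genes are a thin band at the foot of both.

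Few genes of similar abundance had ratios of this size. Of the genes compared, 2102 had a control value within the range spanned by the members, and 0.856% of these were at least doubled on noni, with 2.71% at a ratio of at least 1.5. Their median log2 ratio was -0.07. The 2102 genes include the members themselves, which were 4 of the 18 at least doubled and 6 of the 57 at a ratio of at least 1.5. Of the 803 genes that were at least as abundant on noni as *Cp7Fa*, 19 (2.37%) were at least doubled. Of these 19, 4 were members of the cluster, 3 belonged to the autosomal cluster and 6 were rRNA, tRNA, snRNA or snoRNA genes. This floor is the lowest value of a member on noni, so every member passed it by construction. The *Cp7F* genes, at 99.2 to 221 FPKM on control, were below it in that diet. A floor on noni favours genes that are higher there, so the 4 of 19 cannot be read as a result about the members. Among all genes compared, 69 had a higher log2 ratio than *Cp7Fb* and 322 a higher one than GM21636.

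**Figure D3:**
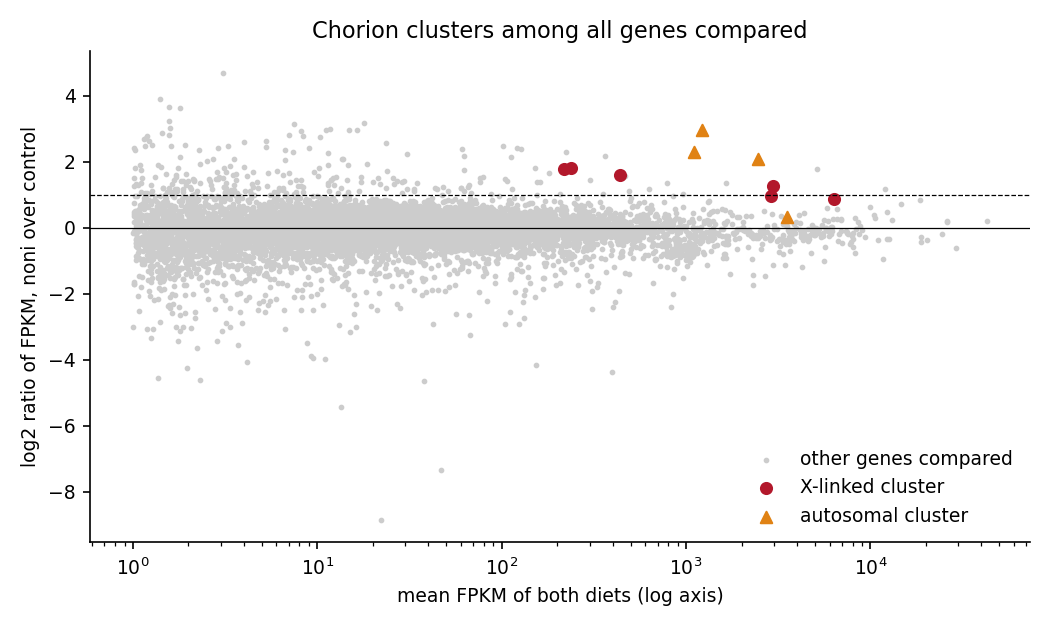
Log2 ratio of noni to control against the mean FPKM of both diets (log axis) for the 11860 genes compared (grey), with the X-linked cluster as red circles and the autosomal cluster as orange triangles. The dashed line marks a doubling, and the red circles lie between 0.86 and 1.81 in the upper right of the plot, where few grey points reach that height.

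Genes on either side of the cluster had lower log2 ratios than any member. Within 50 kb on either side there are 18 other genes, of which 15 could be compared. Their median log2 ratio was 0.18, with a range from -0.80 to 0.68, and 12 were higher on noni, beside 55.1% of all genes compared. None of the 15 was at least doubled, a count of 0, which is near the 2.07% of all genes compared and is nothing particular to these neighbours. Before *Cp7Fa*, the nearest gene is GM21301, listed as the ortholog of *CG12116*, whose end is 2173 nt away. It had 845 FPKM on noni and 682 FPKM on control, a log2 ratio of 0.31, so it was more abundant than *Cp7Fa* in both diets and had a smaller ratio. The genes GM21312 and GM21323, next on that side, had log2 ratios of 0.13 and 0.19.

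After *Cp38*, GM21290 starts 2286 nt away and had 171 FPKM on noni and 123 FPKM on control, a log2 ratio of 0.48. It is followed by GM21279, the ortholog of *otu*, a gene needed in the germline for egg formation, which had 149 FPKM on noni and 93.1 FPKM on control. Its log2 ratio of 0.68 was the highest of the flanking genes, and *otu* was the 1 gene of the 15 with a ratio of at least 1.5. The next gene, GM21669, starts 29579 nt away and had a log2 ratio of 0.28. The lowest flanking gene, named here after its value was seen, was GM21334, listed as the ortholog of *CG15347*. It had 124 FPKM on noni and 216 FPKM on control, a log2 ratio of -0.80. Within 20 kb the median of the 7 genes compared was 0.31, and within 100 kb that of 24 genes was 0.18. Over the 46 other genes compared on the whole scaffold it was 0.08.

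**Figure D4:**
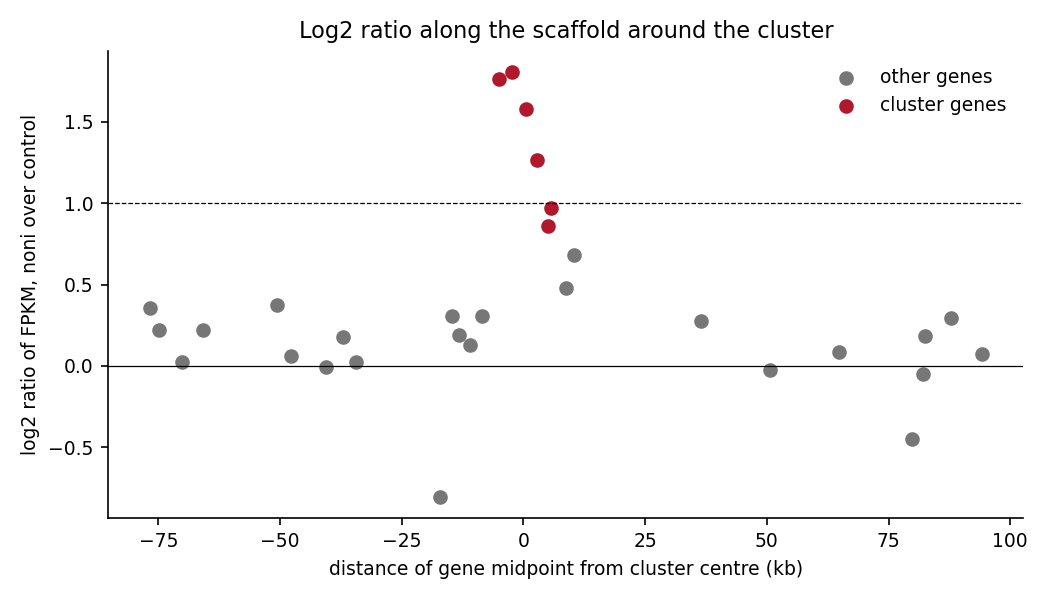
Log2 ratio of noni to control for the cluster genes (red) and the other genes compared within 100 kb of the cluster (grey), against the distance of each gene's midpoint from the centre of the cluster in kb. The red points stand between 0.86 and 1.81 over a narrow stretch, and no grey point is above 0.68.

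Runs of neighbouring genes with such ratios were few. Along the scaffolds, with genes that could not be compared and the rRNA, tRNA, snRNA and snoRNA genes left out, 3 runs of at least 3 neighbours were at least doubled. The longest, of 4 genes, was *Cp7Fa* to *Cp36*. The others had 3 genes each, and 1 of them consists of *Femcoat*, *CG15570* and *CG15571* on scaffold 4. At a ratio of at least 1.5 there were 9 such runs, of which the longest comprised the 6 members of the cluster and no other gene. The next longest, of 5 genes without a listed ortholog on scaffold 0, had a median log2 ratio of 0.90. Genes annotated at the same position were not merged in these counts. GM18892, GM18893 and GM19220 (*Vml*), counted as a run of 3, all start at 1955671 on scaffold 10 and so are not separate neighbours. In the autosomal chorion cluster, *Cp18*, *Cp19* and *Cp16* were at least doubled. *Cp15*, which lies between *Cp18* and *Cp19*, had a log2 ratio of 0.33, and no run was counted there.

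The genes of the autosomal cluster, on scaffold 0, gave a wider spread of ratios than the X-linked members. *Cp18* (GM25085) had 2159 FPKM on noni and 280 FPKM on control, a log2 ratio of 2.95. *Cp16* (GM25088) had 1833 FPKM on noni and 378 FPKM on control, with a log2 ratio of 2.28. For *Cp19* (GM25087) the values were 3989 FPKM on noni and 944 FPKM on control, with a log2 ratio of 2.08. These 3 log2 ratios were above the highest of the X-linked cluster, 1.81. *Cp15* (GM25086), at 3917 FPKM on noni and 3117 FPKM on control, was below its lowest, with a log2 ratio of 0.33. The median log2 ratio was 2.18 for the 4 autosomal genes and 1.42 for the 6 X-linked genes, a difference that was not tested. The autosomal cluster summed to 11898 FPKM on noni and 4720 FPKM on control, a ratio of 2.52, against 2.04 for the X-linked cluster. *Cp15* and *Cp18*, both late genes in *D. melanogaster*, had the lowest and the highest log2 ratio of the 10 genes.

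Outside the clusters, 9 of 12 listed chorion and eggshell genes were matched. All 9 were higher on noni and 5 were at least doubled, beside 55.1% and 2.07% of all genes compared, with a median log2 ratio of 1.40, from 0.35 for *yellow-g* to 2.97 for *Mur11Da*. Of 12 vitelline membrane genes, which the same follicle cells express before the chorion genes, 7 were matched. All 7 were higher on noni, beside 55.1% of all genes compared, with a median log2 ratio of 0.51, from 0.11 for *Vm26Ac* to 0.77 for *Vm32E*. A ratio of at least 1.5 was reached by 3 of the 7, beside 5.96% of all genes compared, and a doubling by none, which is near the 2.07% of all genes compared. Of 4 names for yolk uptake and yolk proteins, *Yp1* and *Yp2* were matched, with log2 ratios of 0.83 and 0.72. The values of the X-linked members, from 0.86 to 1.81, lay above the 7 of the vitelline membrane list and both of the yolk protein list. They lay inside the range of the other chorion genes. The separation from the vitelline membrane list holds for the genes named there. GM18892, named here after its value was seen, starts at the same position as *Vml* and has no listed ortholog. It had 1115 FPKM on noni and a log2 ratio of 0.946, which is above that of GM21636. The lowest member, GM21636 at 0.86, was barely above *Yp1* at 0.83, and no spread is known for either. Except for *Yp2*, the names came from the supplementary tables of the paper, which favour genes that changed on noni or on a compound of noni. The genes matched are therefore not a neutral sample of eggshell genes.

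**Figure D5:**
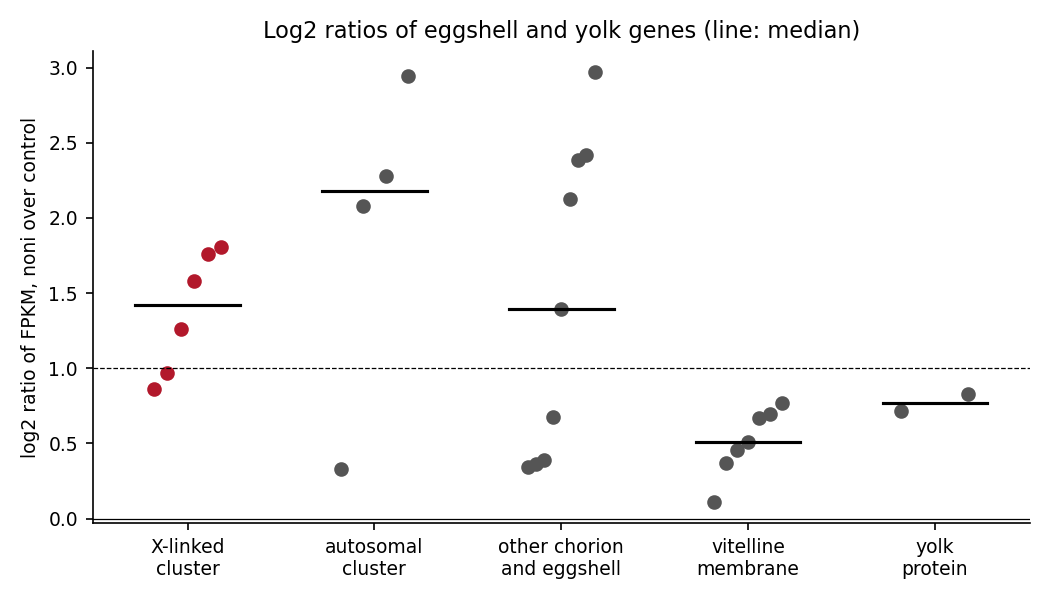
Log2 ratio of noni to control for each gene of the X-linked cluster (red) and of the lists of other eggshell and yolk genes (grey), with the median of each list as a black line. The medians are 1.42, 2.18, 1.40, 0.51 and 0.77 from left to right, and the dashed line marks a doubling.

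Of 25 names for the licensing and firing of replication origins, on which gene amplification in follicle cells depends in *D. melanogaster*, 8 were matched. All 8 were higher on noni, beside 55.1% of all genes compared, with a median log2 ratio of 0.40. A ratio of at least 1.5 was reached by 3 of the 8, beside 5.96% of all genes compared, and a doubling by none, which is near the 2.07% of all genes compared. The lowest was *dup*, a licensing factor, at 0.12, and the highest *Orc3*, a subunit of the origin recognition complex, at 0.62. *SuUR*, which slows replication forks, had 24.0 FPKM on noni and 16.0 FPKM on control, a log2 ratio of 0.59. Of 11 names for the factors of the Myb and E2F complexes that bind the amplification control elements, *E2f1* was matched, at 0.15. Of 17 regulators of follicle cells, *EcR* (0.31), *CtBP* (0.11) and *tj* (0.02) were matched. Too few names of these lists were matched to describe the pathways. Most were matched through the supplementary tables of the paper, which favour genes that changed on noni or on a compound of noni. The genes matched are therefore not a neutral sample of these pathways, and their counts cannot be read against the shares over all genes.

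The genes most like the cluster were those at least as abundant on noni as *Cp7Fa* with a log2 ratio within the range of the members. Likeness was measured as the distance from the median log2 ratio of the members, over the 2 diets. There were 12 such genes outside the cluster, of which 5 were rRNA or snoRNA genes. The 5 nearest were 5.8SrRNA:GM27061 (log2 ratio 1.46), snoRNA:GM27480 (1.37), snoRNA:GM27586 (1.36), GM23806 (1.57), which has no listed ortholog, and GM21424 (1.17), the ortholog of *CG12374*. The others included *MtnA* (1.16), a metal-binding metallothionein, *fit* (1.76), a satiety factor in *D. melanogaster* females, and *Pepck1* (1.03), an enzyme of glucose synthesis. These 3 were chosen for their known roles after their values were seen. The rRNA and snoRNA entries are single annotated genes picked for their likeness, so they do not describe their RNA classes. The paper reports several rRNA and snoRNA genes as downregulated on noni. The libraries were selected for poly(A) RNA, and how these RNA classes as a whole differed between the diets was not tested.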

How the data were processed

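RNA of whole adult females on noni and control food was sequenced, with 3 libraries per diet grouped by the diet in the labels. Per the paper's methods, read quality was assessed in FastQC, mapping to the build dsec_caf1 was done in Bowtie2, and Cuffdiff quantified the genes, normalizing by the geometric method and correcting for library size and sequence bias. Tool versions are not given in the sources used here. The authors deposited FPKM values that are pooled over the libraries of a diet. Their own log ratios, test statistics, p-values and q-values, also in the table, were not used. FPKM is relative to the library, so a value depends on how the libraries were scaled. The sum over all genes was not held equal, at 2022894 FPKM on noni and 2156530 FPKM on control.

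Log2 ratios of noni over control were computed for the 11860 genes above 0 FPKM in both diets with a mean of at least 1 FPKM. Genes with a log2 ratio of at least 1 were counted as at least doubled. No pseudocount was added. Locus starts in the table were taken to count from 0 (47.5% of the lengths are then multiples of 3, and 26.8% if they count from 1), so 1 was added to each start. Names were matched through the table itself and the ortholog columns of the supplementary tables, which named 2116 genes. The members and the lists were chosen with earlier results of these data known. Genes were named by rule: the members, the 3 nearest genes on either side, the autosomal cluster, the extremes of the lists and the 5 genes most like the members; others are said to be so or are named for their role. Alternatives were pseudocounts of 1 and 10 FPKM, 4 scalings, other filters on low values, a ratio of 1.5, 1 gene per locus, a sum without RNA classes and other widths of the flank. The calculation was tested on simulated data. Python 3.11.15, numpy 2.4.6, pandas 2.3.3 and matplotlib 3.10.9 were used. No sequence of the members was used.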

Additional observations from a re-analysis of the deposited data

How the results depend on the processing

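The table holds no library-level spread, so a log2 value was taken as moved when it differed by more than 0.1, and a count or percentage when it differed by more than 1.5 times. Under the 13 alternatives all 6 members stayed higher on noni, with a median log2 ratio between 1.38 and 1.52. Only the pseudocounts and the 4 scalings can change the log2 ratio of a member, and a pseudocount cannot reverse its sign. The other alternatives left these ratios unchanged by construction. The number of members at least doubled stayed at 4, except for 5 with both rescalings to equal sums, where *Cp38* was included, and 6 at a ratio of at least 1.5. The cluster was between 0.865% and 0.958% of the summed FPKM on noni and between 0.399% and 0.447% on control, the higher values being those without rRNA, tRNA, snRNA and snoRNA genes. The 4 scalings shifted the log2 ratios of all genes by -0.04 to 0.10. With a pseudocount of 10 FPKM the median of the other chorion genes was 1.21. At a ratio of at least 1.5, 3 vitelline membrane genes were counted. The median of the flanking genes was 0.31 within 20 kb, where fewer genes entered. The share of all genes at least doubled depended on low values: it was 3.73% without a filter, 1.06% at a mean of at least 10 FPKM and 0.514% with a pseudocount of 10 FPKM, and 5.96% of genes reached a ratio of 1.5. Leaving out single libraries was not run, because the values are pooled over the libraries of a diet. No paired analysis was possible because the table has 1 pooled value for each diet.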
